A study of Mus musculus with 5 samples.

Results

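This report describes 41 genes of DNA replication in mouse thymic cell suspensions, chosen by name as replication factors. The rule uses no measured value, but the list was drawn up with earlier results of these data known. All 41 were found among the 19764 gene symbols on the arrays, and all 41 lay among the 9882 genes whose mean level over the arrays was at or above the median gene, a log2 level of 5.28. Of the probe sets that stand for them, 32 carried the current symbol in the deposited table, and 9 were matched through an accession or an older name, such as Ris2 for Cdt1. Where a gene had several probe sets, the one with the highest mean over the 5 arrays was used.

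Each array held RNA from a pool of thymic cells of 3 mice. They were males of the outbred CD-1 stock, 4 to 6 weeks of age. The 5 groups were untreated mice, mice 4 h after an intraperitoneal injection of PBS (the saline vehicle), mice 4 h after an injection of 0.2 mg dexamethasone each, cells cultured for 4 h with 0.1% ethanol, and cells kept for 4 h in culture with dexamethasone, whose concentration the labels write as 10e-7 M. Dexamethasone is a synthetic glucocorticoid, and the arrays compare it with its vehicle in living animals and in culture. Each group had 1 array, so a difference between arrays has a size but no replicate check, and the number of arrays limits the precision. Values are deposited log2 levels after the authors' RMA normalization, and comparisons are differences of log2 levels on the same probe set, where 1 is 2-fold and 0.58 is 1.5-fold.

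Replication starts at origins that carry the origin recognition complex, where Cdc6 and Cdt1 load the MCM helicase ring. The Cdc7-Dbf4 and cyclin E kinases then fire the origin by bringing in Cdc45 and GINS, and primase, polymerases, the Pcna clamp and its RFC loader copy the strands while nucleotide-producing enzymes supply the building blocks. Many of these genes are transcribed at the entry into S phase by E2F factors. In the thymus, precursors divide rapidly before they become small CD4 CD8 double-positive thymocytes, most of which are resting.

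The starts of the member genes were searched for E2F-type sites, because most members shared a direction in each setting. RefSeq promoter windows of build GRCm38.p6, each 300 bases long with 250 before and 50 after a transcript start, matched 34 of the 41 members. The octamers searched on both strands were TTTCCCGC, TTTGCCGC, TTTCGCGC and TTTGGCGC, and overlapping matches were each counted. At least 1 octamer lay in a window of 12 of the 34 members, or 35.3%, against 5.16% of 7475 kept genes with a window. The median GC content was 61.33% for the members' windows and 61.0% for those of kept genes. Among members at least 1.5-fold lower with dexamethasone in vivo, 3 of 10 had an octamer, and among the other members 9 of 24 did. That difference was not tested, and Mcm4, Gins1 and Ccne2, also at least 1.5-fold lower, had no window. A match is a run of letters and was not tested for binding.

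Shown are the windows of Cdc6, Mcm3, Mcm6 and Mcm2, whose transcripts were all lower with dexamethasone in vivo, with octamers in capitals. Cdc6 lies on the plus strand (chr11:98907901-98908200), and Mcm3 (chr1:20820263-20820562), Mcm6 (chr1:128359656-128359955) and Mcm2 (chr6:88898731-88899030) on the minus strand. Cdc6 has its octamer beginning 138 bases before the start. Mcm3 has matches 19 and 38 bases after it, Mcm6 has overlapping matches at 110 and 106 and another at 47 bases before it, and Mcm2 has 0 in this window.
Cdc6: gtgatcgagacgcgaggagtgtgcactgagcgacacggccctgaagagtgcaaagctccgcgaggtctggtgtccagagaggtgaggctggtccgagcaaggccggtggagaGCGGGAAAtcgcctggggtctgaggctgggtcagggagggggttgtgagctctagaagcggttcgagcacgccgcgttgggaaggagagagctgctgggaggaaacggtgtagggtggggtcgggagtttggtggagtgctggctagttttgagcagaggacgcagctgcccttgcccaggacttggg
Mcm3: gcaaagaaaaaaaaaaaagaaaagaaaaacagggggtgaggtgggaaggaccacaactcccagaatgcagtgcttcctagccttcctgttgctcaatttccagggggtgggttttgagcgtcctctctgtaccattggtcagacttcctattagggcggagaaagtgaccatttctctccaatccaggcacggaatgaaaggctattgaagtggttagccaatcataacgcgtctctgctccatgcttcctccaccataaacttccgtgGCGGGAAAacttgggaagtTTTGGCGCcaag
Mcm6: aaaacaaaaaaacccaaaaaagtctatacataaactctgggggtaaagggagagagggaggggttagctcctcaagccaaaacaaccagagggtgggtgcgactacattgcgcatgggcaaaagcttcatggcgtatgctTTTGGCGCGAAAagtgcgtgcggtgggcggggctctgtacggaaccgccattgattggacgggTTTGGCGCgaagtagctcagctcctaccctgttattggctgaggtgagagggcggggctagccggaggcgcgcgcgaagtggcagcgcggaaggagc
Mcm2: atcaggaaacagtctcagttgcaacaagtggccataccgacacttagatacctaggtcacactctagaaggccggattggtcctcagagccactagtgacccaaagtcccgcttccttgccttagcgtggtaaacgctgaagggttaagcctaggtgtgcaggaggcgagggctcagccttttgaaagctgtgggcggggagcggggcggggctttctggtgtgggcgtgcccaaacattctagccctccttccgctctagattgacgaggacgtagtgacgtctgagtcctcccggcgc

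In living mice, most replication genes stood lower on the dexamethasone array than on the PBS array, whereas in culture most stood slightly higher with dexamethasone than with ethanol. In vivo, 38 of 41 members were below PBS, where 58.6% of all kept genes were. The count was 37 after centring the arrays, 32 with the mean over a gene's probe sets and 29 with the second probe set. The 3 above PBS were Cdc45, Cdc7 and Prim2, where 38.8% of kept genes were above. The members' median difference was -0.39 against -0.07 for all kept genes. Of the members 13, or 31.7%, were at least 1.5-fold lower, where 7.37% of kept genes were, and 0 were at least 1.5-fold higher, where 6.48% were. At 2-fold, only Cdc6 was lower, where 1.48% of kept genes were, and 0 members were higher, where 2.71% were. In culture, 37 of 41 members were above ethanol, where 56.3% of kept genes were, with a median of 0.19 against 0.04. That count was 32 after centring, 34 with the mean over probe sets and 25 with the second probe set, the last near the background share. The 4 below ethanol were Gins2, Orc6, Rrm2 and Uhrf1, where 40.7% of kept genes were below. At 2-fold, 0 members were lower or higher in culture, where 0.86% and 1.53% of kept genes were. At least 1.5-fold higher in culture were 3 members, or 7.32%, where 4.37% of kept genes were, and 0 were that much lower, where 3.74% were. Below PBS in vivo and above ethanol in culture at once were 34 members, or 82.9%, where 29.2% of kept genes were. That count was 28 after centring the arrays, 25 with the mean over a gene's probe sets and 19 with the second probe set. The mean and second probe sets include ones below the level filter, and the 7 members with 1 probe set kept it. The shares of kept genes are for the probe sets with the highest mean on arrays not centred. They were not recomputed for the alternatives. The dexamethasone arrays and their vehicles were different arrays in the 2 settings, so the comparisons share none.

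**Figure D1:**
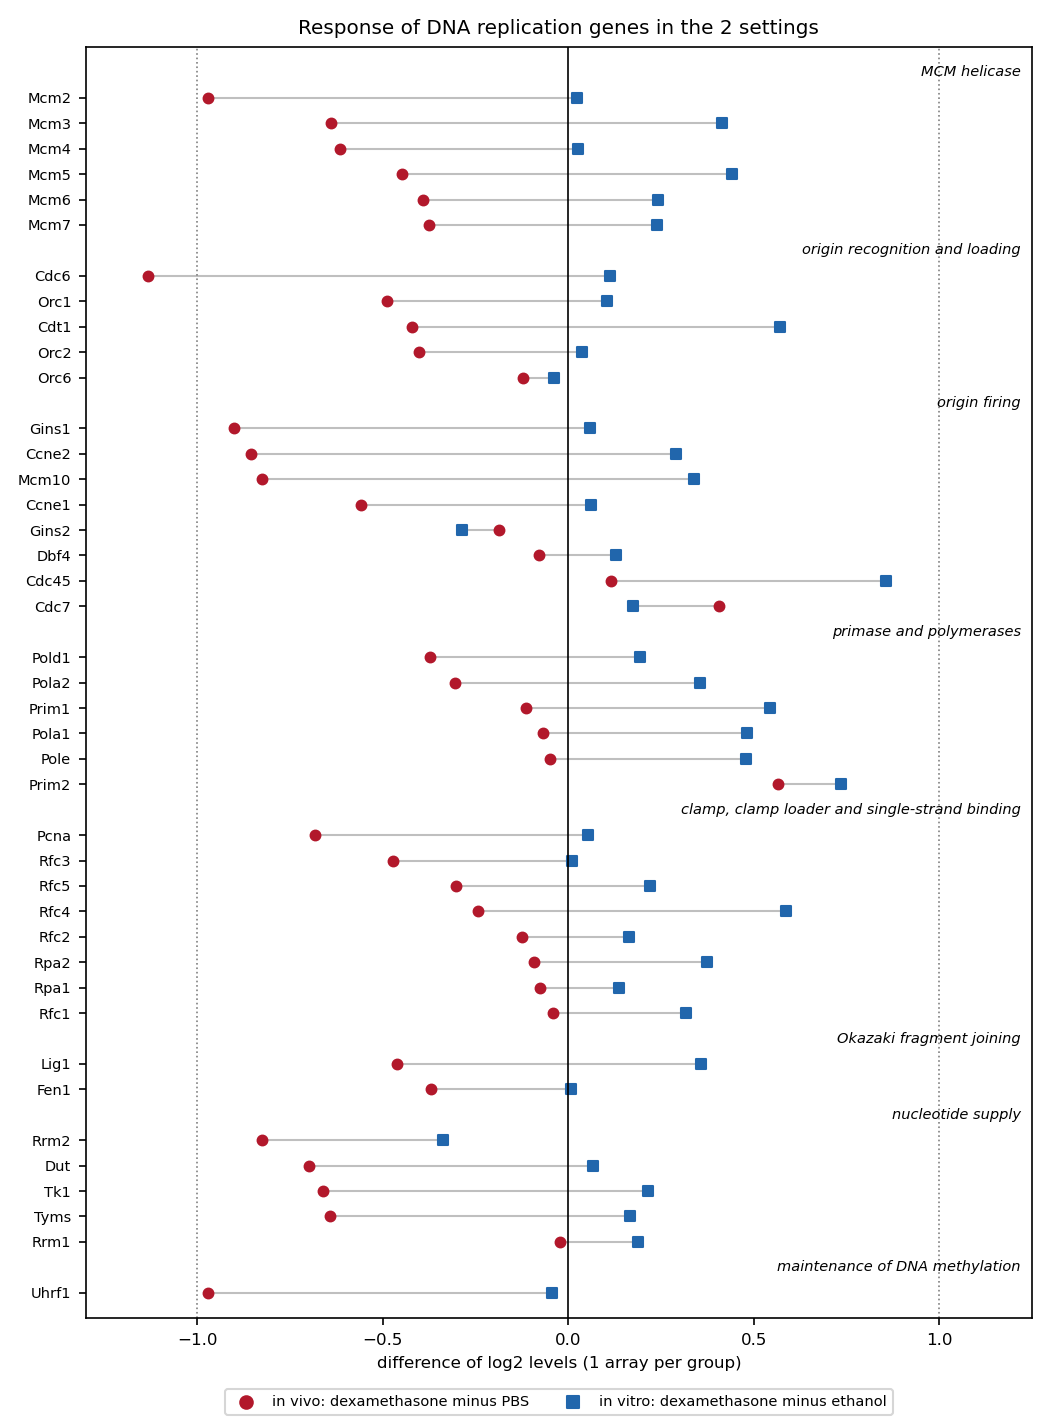
Each row is 1 of the 41 genes, grouped by role; the x axis is the difference of log2 levels, red circles show dexamethasone minus PBS in vivo and blue squares dexamethasone minus ethanol in vitro, with 1 array per group and dotted lines at 2-fold. Red lies left of 0 for 38 genes and blue right of 0 for 37; these counts were 37 and 32 after centring the arrays, 32 and 34 with the mean over probe sets and 29 and 25 with the second probe set.

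Across all 5 arrays, the in vivo dexamethasone array was the lowest for 34 of 41 members, where 33.2% of kept genes had it lowest. That count was 31 after centring the arrays, 30 with the mean over probe sets and 28 with the second probe set. The cultured dexamethasone array was the highest for 26, where 30.9% of kept genes had it highest. Under the same alternatives that count was 24, 27 and 18. The untreated array was the highest for 10, where 20.4% of kept genes had it highest. The members' median log2 level was 8.36 untreated, 8.45 with PBS, 8.15 with dexamethasone in vivo, 8.66 in ethanol culture and 8.93 in cultured dexamethasone. Their intensities summed on the linear scale were 27968 untreated, 27387 with PBS, 19977 with dexamethasone in vivo, 29416 in ethanol culture and 32777 in cultured dexamethasone. The in vivo dexamethasone array was thus the lowest on both scales and the cultured dexamethasone array the highest. In a bulk suspension, fewer cells of a type and less RNA per cell cannot be told apart.

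PBS and untreated mice give the only comparison of arrays from living animals without dexamethasone. On the probe sets used, no member differed by 1.5-fold between them. Granulocyte markers did, with 7 of 7 at least 1.5-fold higher with PBS and a median of 0.81, and their part in the members' values was not tested. Below untreated were 26 members and above it 14, where 50.9% and 45.4% of kept genes were, with a median difference of -0.04. At 1.5-fold, 0 members were lower or higher, where 2.5% and 1.69% of kept genes were. At 2-fold the count was also 0 in each direction, where 0.374% and 0.192% of kept genes were. The largest absolute difference was 0.50, for Ccne1, and the median absolute difference was 0.15, against 0.41 for dexamethasone minus PBS. Second probe sets of Prim2 and Orc1 differed more, by 1.69 and 0.59, on untreated levels of 4.59 and 4.97 that lie below the level filter. Of 27 members with at least 2 probe sets above that filter, 11 had them on opposite sides of 0. The absolute dexamethasone difference in vivo exceeded 0.50 for 15 members, and of these only Prim2 stood higher. The share of kept genes beyond 0.50 is not given here, so that count has no background. Dexamethasone minus PBS and PBS minus untreated share the PBS array. With dexamethasone in vivo, 34 of 41 members lay below both the untreated and the PBS array, where 47.7% of kept genes did.

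Ccne1 encodes cyclin E1, a partner of Cdk2 at the entry into S phase. Its log2 level was 6.74 untreated, 7.24 with PBS, 6.68 with dexamethasone in vivo, 7.12 in ethanol culture and 7.18 in cultured dexamethasone. The dexamethasone array in vivo differed from PBS by -0.56 but lay close to untreated. Its second probe set read 6.04 untreated, 6.39 with PBS and 5.61 with dexamethasone in vivo, below both, at -0.77 against PBS. For Cdc7, the kinase that triggers origin firing, the levels were 8.13 untreated, 7.71 with PBS, 8.12 with dexamethasone in vivo, 8.41 in ethanol culture and 8.58 in cultured dexamethasone. Cdc7 was 1 of 3 members above PBS in vivo, by 0.41, and PBS was its lowest array, at -0.42 against untreated.

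Origin recognition and loading genes were lower in vivo, with a median of -0.42 over 5 members and all 5 below PBS. Cdc6, the loader of the MCM ring, had log2 levels of 8.63 untreated, 8.45 with PBS, 7.32 with dexamethasone in vivo, 8.27 in ethanol culture and 8.38 in cultured dexamethasone. The other 4 arrays spanned only 8.27 to 8.63, and the in vivo dexamethasone array differed from PBS by -1.13, or 2.19-fold lower, and from untreated by -1.31. Cdt1, the partner of Cdc6 in loading, had 9.56 untreated, 9.71 with PBS, 9.29 with dexamethasone in vivo, 9.67 in ethanol culture and 10.24 in cultured dexamethasone. Its lowest and highest arrays were the 2 dexamethasone arrays, at -0.42 against PBS and 0.57 against ethanol, although its second probe set gave 0.37 against ethanol. Orc1 and Orc2, subunits of the origin recognition complex, were at -0.49 and -0.40 in vivo, and Orc6 at -0.12. Orc1 and Orc2 each had a further probe set above the level filter with an in vivo difference of 0, and Orc2 crossed 0 in culture after centring.

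The 6 genes of the MCM helicase ring were all below PBS in vivo, with a median of -0.53, and all above ethanol in culture, with a median of 0.24, although Mcm2 and Mcm4 crossed 0 in culture after centring. Mcm2 had log2 levels of 9.28 untreated, 9.38 with PBS, 8.41 with dexamethasone in vivo, 8.61 in ethanol culture and 8.64 in cultured dexamethasone. Dexamethasone minus PBS was -0.97 in vivo, but both cultured arrays were low as well, and ethanol culture minus untreated was -0.66. The in vivo differences were -0.64 for Mcm3, -0.62 for Mcm4, -0.45 for Mcm5, -0.39 for Mcm6 and -0.38 for Mcm7. In culture Mcm3 and Mcm5 stood highest of the ring, at 0.41 and 0.44. All 4 Mcm3 probe sets above the level filter lay between -0.76 and -0.62 in vivo and between 0.36 and 0.46 in culture.

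Genes of origin firing were split. Gins1, a subunit of the GINS complex, had log2 levels of 7.47 untreated, 7.38 with PBS, 6.48 with dexamethasone in vivo, 7.41 in ethanol culture and 7.47 in cultured dexamethasone. The 4 other arrays spanned 7.38 to 7.47, and dexamethasone minus PBS was -0.90. Ccne2, which encodes cyclin E2, had 8.15 untreated, 7.72 with PBS, 6.87 with dexamethasone in vivo, 7.59 in ethanol culture and 7.87 in cultured dexamethasone. Dexamethasone minus PBS was -0.85, and PBS itself differed from untreated by -0.43. Mcm10, a helicase cofactor, was at -0.83 in vivo and 0.34 in culture, and Dbf4, the activator of Cdc7, at -0.08 and 0.13.

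Cdc45, which joins the MCM ring to form the active helicase, had the largest difference of the members in culture. Its log2 levels were 6.85 untreated, 6.82 with PBS, 6.93 with dexamethasone in vivo, 7.07 in ethanol culture and 7.92 in cultured dexamethasone. The cultured dexamethasone array stood apart, 0.86 above ethanol, while the other 4 lay between 6.82 and 7.07. A second Cdc45 probe set, close to the level filter, was at -0.031 in culture and 0.19 in vivo, so the value in culture rests on 1 probe set. Gins2 cannot be given a direction, because its 5 probe sets ran from -0.27 to 1.42 in vivo and from -0.57 to 1.84 in culture. The probe sets at 0.89 and 1.42 in vivo name the same source sequence and were above 0 in both settings. The others were below 0 in both. Among them, the probe set with the highest Gins2 mean, used for the counts above, was at -0.19 and -0.29.

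Primase and polymerase genes differed little in vivo and were higher in culture, with medians of -0.09 and 0.48 over 6 members. All 6 were above ethanol in culture, from 0.19 for Pold1, of polymerase delta, to 0.74 for Prim2. Prim2, the large primase subunit, had log2 levels of 7.46 untreated, 7.42 with PBS, 7.98 with dexamethasone in vivo, 8.84 in ethanol culture and 9.57 in cultured dexamethasone. It was 2.60-fold higher in ethanol culture than untreated, and above its vehicle in both settings, by 0.57 in vivo and 0.74 in culture. Its second probe set was at 0.96 and 0.92 in the same comparisons and 3.42 for ethanol culture minus untreated. The direction was thus shared and the size was not, and the untreated level of that probe set, 4.59, lay below the level filter. Prim1, the catalytic primase subunit, had 8.95 untreated, 9.03 with PBS, 8.91 with dexamethasone in vivo, 9.45 in ethanol culture and 9.999 in cultured dexamethasone. The 3 arrays from living mice spanned 8.91 to 9.03, and cultured dexamethasone was 0.55 above ethanol. Pola1, of polymerase alpha, and Pole, of polymerase epsilon, were each at 0.48 in culture and at -0.07 and -0.05 in vivo, and Pola2 was at 0.35 and -0.31.

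Among the clamp, its loader and the single-strand binding genes, all 8 were below PBS in vivo and above ethanol in culture, but Rfc3 crossed 0 in culture after centring. Pcna, the sliding clamp, was the lowest in vivo at -0.68, and at 0.05 in culture. Rfc4, a clamp loader subunit, had log2 levels of 8.14 untreated, 7.90 with PBS, 7.66 with dexamethasone in vivo, 8.13 in ethanol culture and 8.72 in cultured dexamethasone. Its dexamethasone arrays were again the lowest and the highest, at -0.24 and 0.59, and its second probe set gave -0.34 and 0.62. The other loader subunits ran from -0.47 for Rfc3 to -0.04 for Rfc1 in vivo. Rpa1, which coats single-stranded DNA, followed culture rather than dexamethasone. Its levels were 10.95 untreated, 11.12 with PBS, 11.05 with dexamethasone in vivo, 11.77 in ethanol culture and 11.91 in cultured dexamethasone, and ethanol culture was 0.82 above untreated.

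Lig1, the ligase that seals Okazaki fragments, had log2 levels of 8.41 untreated, 8.70 with PBS, 8.24 with dexamethasone in vivo, 9.12 in ethanol culture and 9.48 in cultured dexamethasone. Both cultured arrays lay above all 3 arrays from living mice, with ethanol culture 0.71 above untreated, and dexamethasone gave -0.46 in vivo and 0.36 in culture. Fen1, the flap nuclease that acts before it, was at -0.37 in vivo and 0.0075 in culture, where centring turned its sign.

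Nucleotide supply genes had the lowest median of the roles with more than 1 member in vivo, -0.66 over 5 members, and 4 of the 5 were at least 1.5-fold lower. Rrm2, the regulated subunit of ribonucleotide reductase, had log2 levels of 10.99 untreated, 10.99 with PBS, 10.16 with dexamethasone in vivo, 11.33 in ethanol culture and 10.99 in cultured dexamethasone. Dexamethasone minus vehicle was -0.83 in vivo and -0.34 in culture, below 0 in both settings. Its 3 probe sets ran from -0.83 to -0.76 in vivo and from -0.37 to -0.23 in culture. Its partner Rrm1 was at -0.022 in vivo, where centring turned its sign, and at 0.19 in culture. The other Rrm1 probe set was at -0.23 in vivo and -0.11 in culture, below vehicle in both settings. Dut, which removes dUTP, Tk1, thymidine kinase, and Tyms, thymidylate synthase, were at -0.70, -0.66 and -0.64 in vivo. In culture the same 3 were at 0.07, 0.21 and 0.17.

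Uhrf1, which guides maintenance of DNA methylation behind the fork, had log2 levels of 10.14 untreated, 9.93 with PBS, 8.96 with dexamethasone in vivo, 9.77 in ethanol culture and 9.72 in cultured dexamethasone. The in vivo dexamethasone array was the lowest, at -0.97 against PBS, whereas the cultured arrays differed by -0.042. Its other probe sets were at -1.22 and -1.16 in vivo and at -0.42 and -0.48 in culture. The authors' deposited table of the in vivo comparison lists 1260 of the 45101 probe sets, all at 2-fold or more. It held 5 of the 97 member probe sets. In the authors' deposited table these were 1 of Cdc6 (-1.13), 2 of Uhrf1 (-1.22 and -1.16), 1 of Dut (-1.03) and 1 of Gins2 (1.42). Only that of Cdc6 is the probe set that stands for its gene here.

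**Figure D2:**
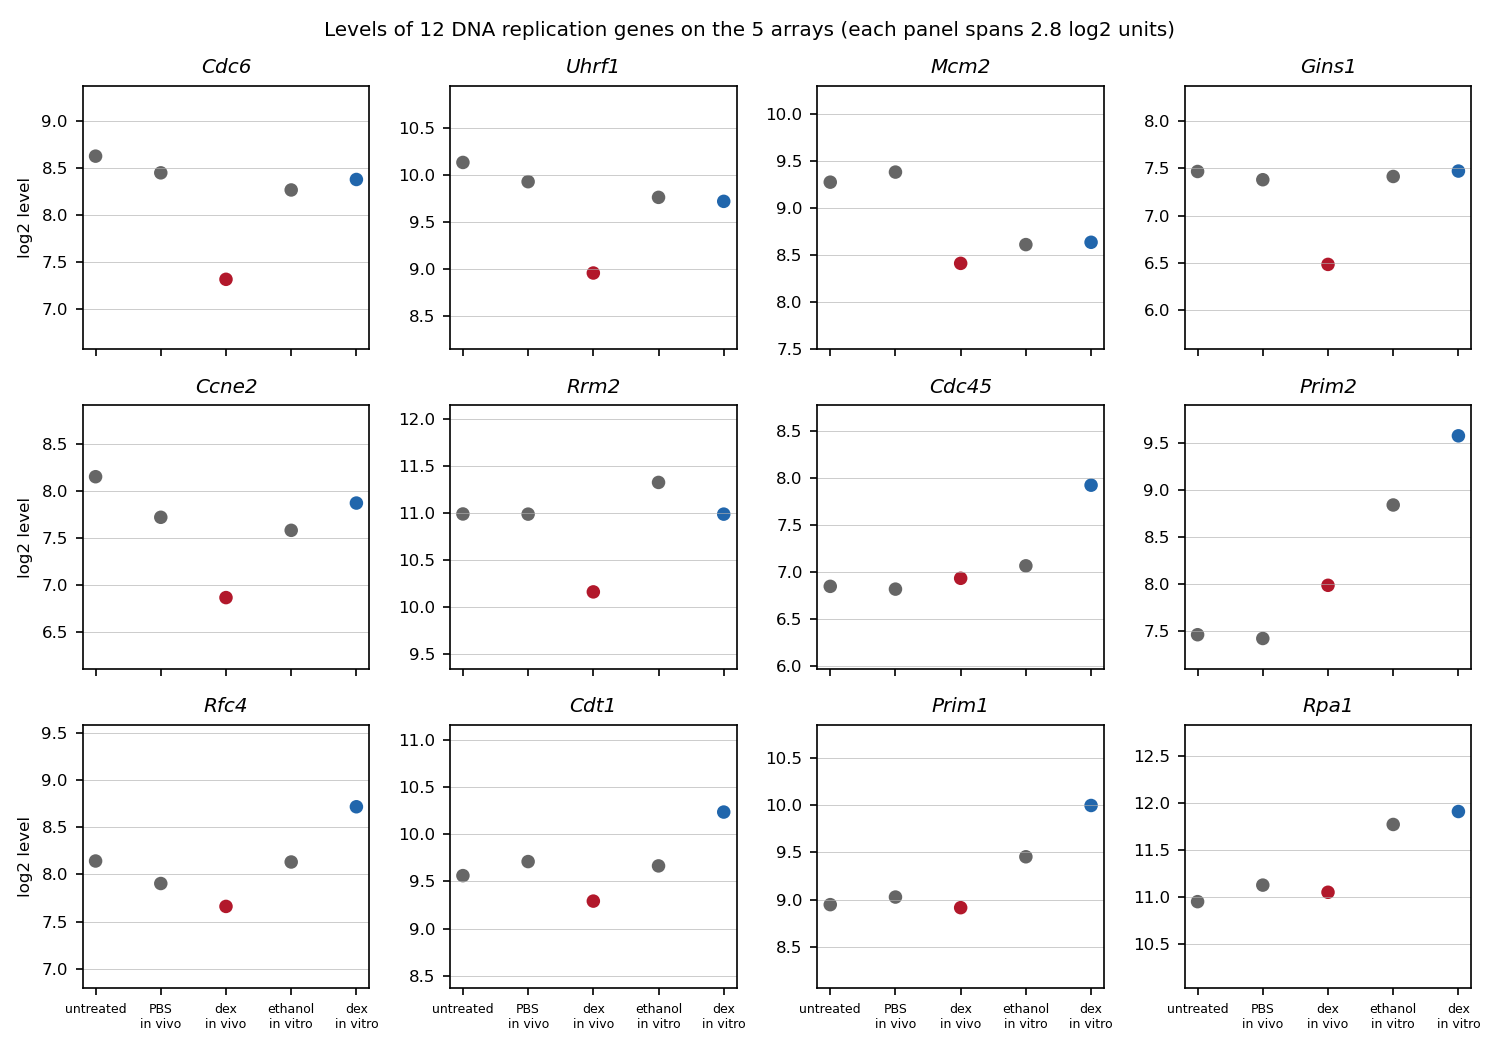
Log2 level (y axis) on each of the 5 arrays (x axis) for 12 genes, 1 point per array, with the dexamethasone arrays in red (in vivo) and blue (in vitro) and every panel spanning the same height. Cdc6, Uhrf1, Gins1, Ccne2 and Rrm2 dip on the in vivo dexamethasone array, Cdc6 to 7.32, whereas Cdc45 reaches 7.92 and Prim2 9.57 on the cultured dexamethasone array.

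In ethanol culture without dexamethasone, the members were split by role against the untreated suspension. This comparison shares the ethanol array with dexamethasone minus ethanol. Of the 41, 25 were above and 16 below untreated, where 50.6% and 46.4% of kept genes were, with a median of 0.11 against 0.01. At least 1.5-fold higher were Prim2, Rpa1 and Lig1, or 7.32% where 10.9% of kept genes were, and Mcm2 alone was at least 1.5-fold lower, or 2.44% where 14.3% were. These shares were below the background. At 2-fold, only Prim2 was higher, where 3.1% of kept genes were, and 0 members were lower, where 8.07% were. The median was -0.30 for the MCM ring, with 5 of 6 below untreated, and 0.52 for primase and polymerases, with 6 of 6 above. Over the same step, thymic epithelium markers had a median of -5.73, fibroblast markers -3.79 and macrophage markers -3.79, with all 10, 9 and 10 measured genes lower and median ethanol culture levels below the level filter. The summed intensity of the epithelium list was 11593 untreated and 171 in ethanol culture. What part this loss has in the values of culture against untreated was not tested.

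The mean dexamethasone response over the 2 settings was tested with limma, as 1 dexamethasone term beside a term for setting over 4 arrays. The p was adjusted by Benjamini-Hochberg over the 9882 kept genes. The term averages the 2 responses, so a call does not show a response in each setting. With 4 arrays and 3 coefficients, each gene's residual is how far its 2 responses disagree, which limma moderates with those of the other genes. The p says nothing of the spread between pools. Among members, 0 rose, where 2.34% of kept genes did, and 1 fell, or 2.44%, where 1.46% did. In either direction 3.79% of kept genes were called. The member was Rrm2, which fell by 0.58 (SE 0.14, limma adjusted p = 0.0466), and it was called under none of the 6 alternative fits. Prim2 was at 0.65 (SE 0.17, limma adjusted p = 0.0666) and Uhrf1 at -0.51 (SE 0.20, limma adjusted p = 0.307). At an unadjusted p under 0.05 there were 3 members, or 7.32%, where 12.8% of kept genes were.

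The in vivo response minus the in vitro response was below 0 for 39 of 41 members, where 63.6% of kept genes were. That count was also 39 after centring the arrays, 37 with the mean over probe sets and 32 with the second probe set. The members' median was -0.62 against -0.12 for kept genes. At least 2-fold below were 4 members, or 9.76%, where 1.61% of kept genes were, and 0 were that much above, where 2.02% were. The 4 were Cdc6 (-1.24), Mcm10 (-1.16), Ccne2 (-1.14) and Mcm3 (-1.05). At least 1.5-fold below were 23, where 9.24% of kept genes were, and 0 were that much above, where 5.84% were. Cdc7 and Gins2 were the members above 0, where 36.2% of kept genes were. By role, the medians ran from -0.47 for the clamp, loader and single-strand binding genes to -0.77 for nucleotide supply among roles with more than 1 member. With 1 array per group this difference has no test.

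Other genes of the pathway were taken from lists of their own. Of 29 kept genes for other replication proteins, 21 were below PBS in vivo and 26 above ethanol in culture, with medians of -0.18 and 0.26. The shares of all kept genes, against which the counts of this and the following lists are read, were 58.6% below PBS and 56.3% above ethanol. Dscc1, which loads the clamp in cohesion, was their lowest in vivo at -1.08, on a dexamethasone level of 4.98 that lies below the level filter, and Rpa3, the small single-strand binding subunit, their highest in both settings at 0.35 and 0.75. Of 17 genes of replication-coupled chromatin and repair, 14 were below PBS and 13 above ethanol, with medians of -0.34 and 0.26. Ung, which removes uracil from DNA, was the lowest in both settings at -1.60 and -0.34, and Chek1, a checkpoint kinase, the highest at 0.35 and 1.18. Of 23 nucleotide synthesis genes, 18 were below PBS and 17 above ethanol, with medians of -0.34 and 0.10. Gart, of purine synthesis, was their lowest in vivo at -0.95 and Shmt1, a serine hydroxymethyltransferase of folate metabolism, their highest at 1.65. In the limma test 0 genes of these 3 lists were called, where 3.79% of kept genes were.

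Regulators of entry into S phase were described by 2 lists. Of 14 kept G1 cyclins, kinases and inhibitors, 11 were below vehicle in each setting, with medians of -0.59 in vivo and -0.21 in culture, where 58.6% and 40.7% of kept genes were below. Ccnd3, which encodes cyclin D3, was the lowest in both at -2.04 and -1.03 and fell by 1.54 in the limma test (SE 0.20, adjusted p = 0.00224). Cdkn1a, an inhibitor of Cdk2, was the highest at 0.96 and 0.26. Of 14 E2F and pocket protein genes, 10 were below PBS in vivo and 10 above ethanol in culture, with medians of -0.34 and 0.12. E2f2, an activating E2F, fell by 0.85 (SE 0.18, limma adjusted p = 0.026), and Tfdp2, an E2F partner, rose by 0.88 (SE 0.20, limma adjusted p = 0.043). With no level filter or no setting term limma called 0 of all genes, so the calls of Ccnd3, E2f2 and Tfdp2 were lost there. The other alternative fits called from 116 to 328 of all genes against 375. Whether these 3 genes were among them is not given here.

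Mitosis genes did not share the members' in vivo pattern. Of 20, 9 were below and 11 above PBS, with a median of 0.03, and 14 were above ethanol in culture, with a median of 0.07. Of the 20, 0 were at least 1.5-fold lower in vivo, where 7.37% of kept genes were. Nek2, a centrosome kinase, was the lowest in vivo at -0.36, and Cdk1, the mitotic kinase, the lowest in culture at -0.17. Bub1b, of the spindle checkpoint, was the highest in both settings at 0.88 and 0.71. Bub1b rose in the limma test by 0.80 (SE 0.15, adjusted p = 0.0151). This call was likewise lost with no level filter or no setting term, and its outcome in the other alternative fits is not given here. In ethanol culture all 20 were above untreated, with a median of 0.60. The difference between the mitosis list and the replication list has no test here.

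**Figure D3:**
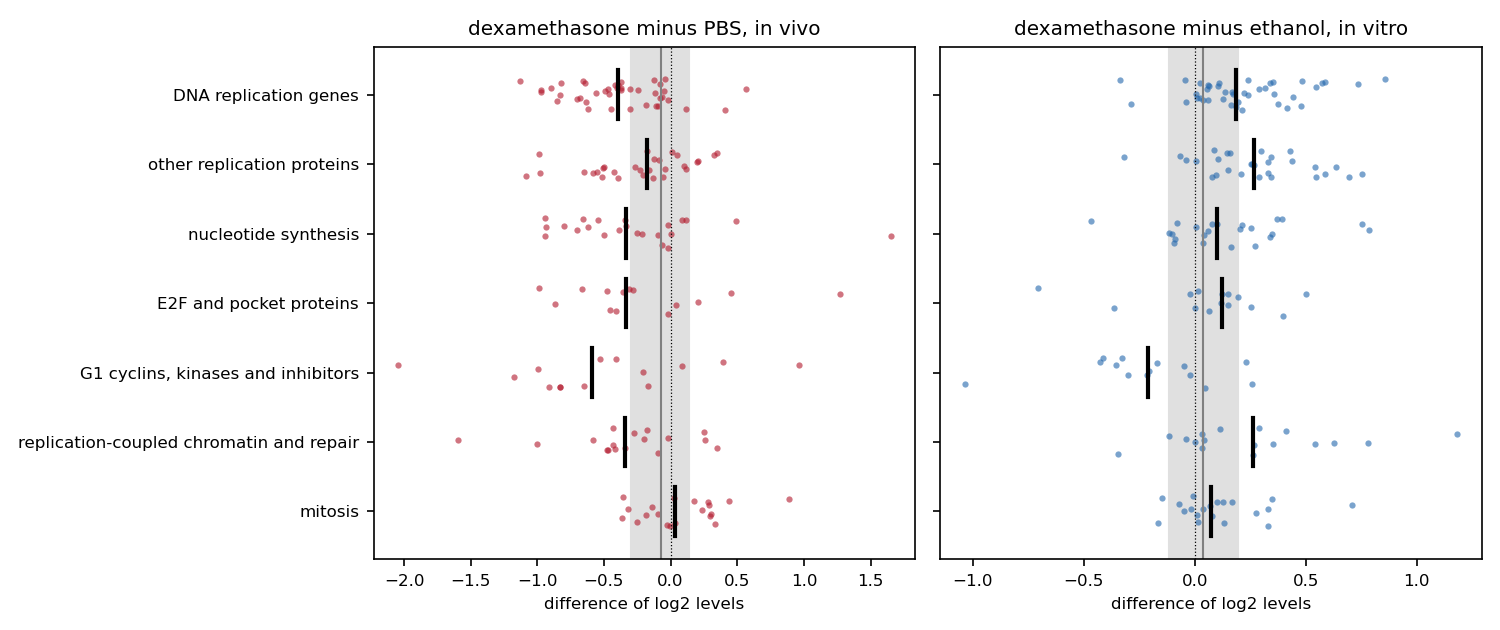
Points are genes of each list by their difference of log2 levels (x axis), dexamethasone minus PBS in vivo on the left and minus ethanol in vitro on the right; black bars are list medians, the grey band is the middle of all kept genes from the lower to the upper quartile and the grey line their median. The replication median is -0.39 in vivo and 0.19 in vitro, the mitosis median 0.03 and 0.07.

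Cell type markers differed between the same arrays. The suspensions were thymic by their double-positive markers, whose median log2 level ran from 10.89 to 11.98 over the 5 arrays. In vivo, 12 of 12 double-positive genes were below PBS, with a median of -0.67, and their summed intensity was 33672 with PBS and 22838 with dexamethasone. In culture 11 of 12 were below ethanol, with a median of -0.34 and sums of 41151 and 30754, so this list was lower in the setting where the members were higher. In the limma test 7 of the 12 fell, where 1.46% of kept genes did, and 0 did with no level filter or no setting term. Their outcome in the other alternative fits is not given here. The lowest in vivo was Ptcra, a receptor chain of early thymocytes that is also on the double-negative list, at -1.36. In culture the lowest was Bcl11b, a T-lineage factor, at -1.13. Double-negative markers had medians of -0.62 in vivo over 10 genes and -0.12 in culture. Macrophage markers were higher in vivo in 9 of 10 genes, with a median of 0.38 and sums of 8995 and 10480, and thymic epithelium sums were 12786 and 14067 with a median of -0.042. Other medians in vivo were 0.14 for fibroblast, -0.20 for B cell, -0.13 for erythroid, -0.37 for granulocyte and 0.05 for endothelium markers. In that order, 6 of 9, 3 of 6, 3 of 5, 7 of 7 and 2 of 6 genes passed the level filter. The median level was 4.51 with PBS for endothelium and 5.13 with dexamethasone for B cell markers, both below that filter. In culture the median levels of epithelium, fibroblast and macrophage markers lay between 3.32 and 4.43, below the level filter, so no difference is given for them. Their sums with ethanol and with dexamethasone were 171 and 209 for epithelium, 107 and 231 for fibroblast, and 790 and 610 for macrophage markers. What part these cells have in the members' differences was not tested.

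Probe sets of the same gene mostly shared a direction in vivo. Of 27 members with at least 2 probe sets above the level filter, 24 had none on opposite sides of 0 in vivo and 19 had none in culture. The exceptions in vivo were Gins2, Prim1 and Rfc1, of which only Gins2 spread by more than 0.5. The exceptions in culture were Ccne1, Cdc45, Dut, Gins2, Mcm2, Orc1, Rfc1 and Rrm1, of which Gins2 and Cdc45 spread by more than 0.5.

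**Figure D4:**
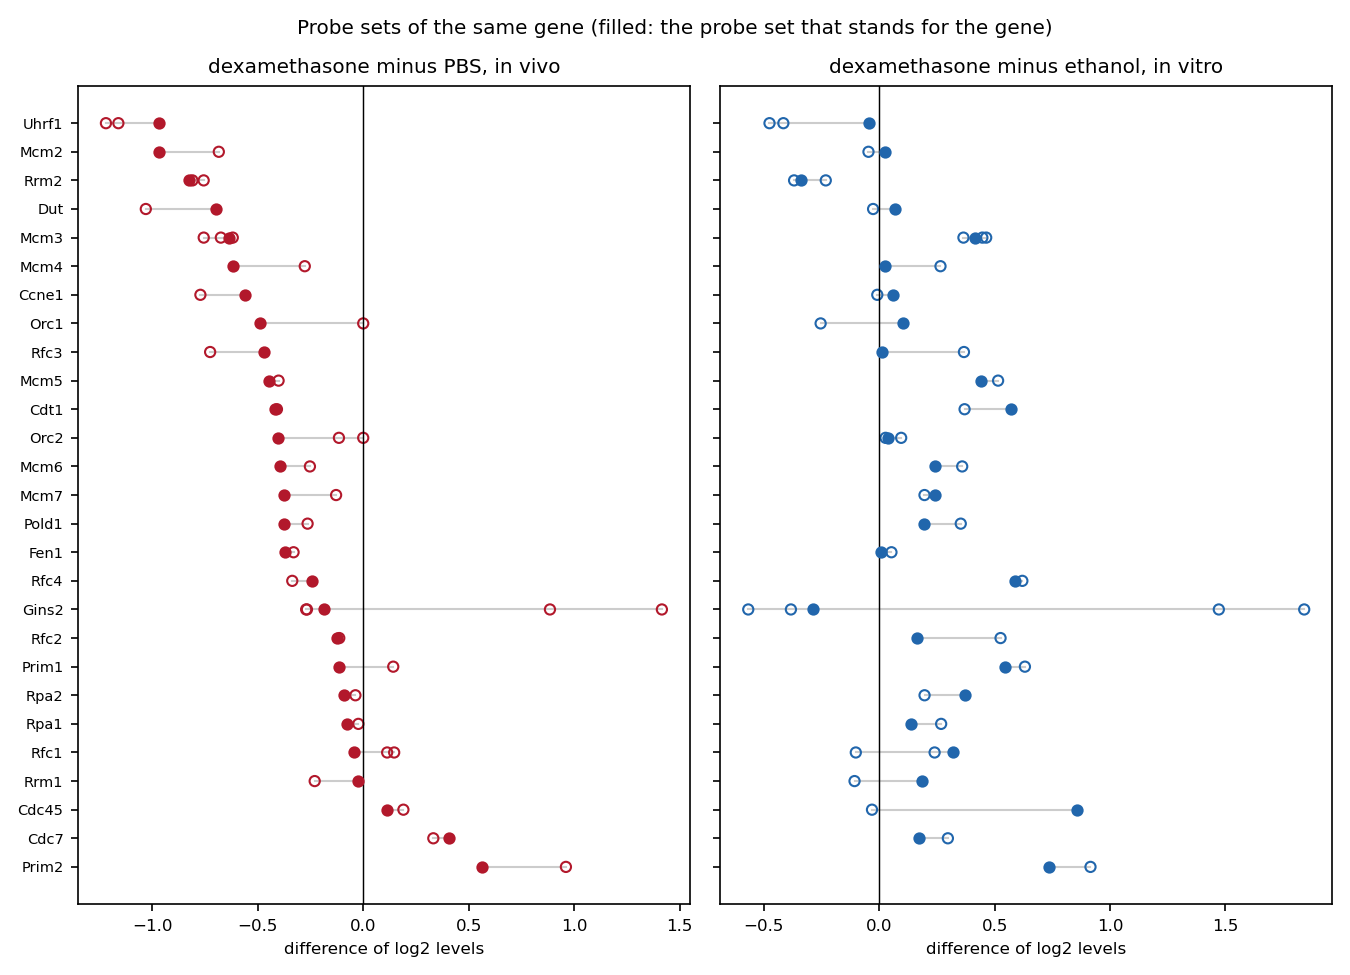
Each row is 1 of 27 genes with at least 2 probe sets above the level filter, and each circle a probe set by its difference of log2 levels (x axis), in vivo on the left and in vitro on the right; filled circles are the probe sets used in the text. Gins2 spans -0.27 to 1.42 in vivo, while the 3 Rrm2 probe sets lie between -0.83 and -0.76.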

How the data were processed

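Transcript levels were measured on 5 arrays, 1 per group. The authors deposited linear intensity values and log2 levels for 45101 probe sets, made with RMA per the submitters' processing notes. RMA's version is not given in the sources used here. Per the file comparison, log2 levels deposited equalled the log2 of the intensity matrix to 7.11e-15, and the authors' deposited log2 differences equalled differences of levels to 1.78e-15. The files used here hold no detection calls or scan dates.

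Symbols were updated through a RefSeq gene table (GRCm38.p6). Each of 19764 symbols took its probe set with the highest mean, and 9882 at or above the median were kept. Differences were counted at 2-fold and 1.5-fold. limma 3.58.1 in R 4.3.3 fitted setting and dexamethasone over 4 arrays with a mean-variance trend, at an adjusted p threshold of 0.05. On simulated data for this fit (9882 genes, 200 changed) it recovered 87% of changes of 1 on the log2 scale. For changes of 2 it recovered 100%. Both sizes were in the same run, which gave 23 false calls in all. These values are for a dexamethasone difference common to both settings. Recovery for genes whose 2 responses disagree, as those of most members did, was not tested.

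The members, lists and tests were chosen with earlier results of these data known. All 41 members could be named. Array values are printed for the 5 largest differences in each dexamethasone comparison, the 3 largest in each other comparison and members called by limma. From each other list the highest and lowest genes and called genes could be named. Alternatives changed the probe set, the centring, the level filter, the fold, the control array and the limma fit. Donson, Adss2, Chaf1a and Hbb-b1 of the lists were not matched.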

Additional observations from a re-analysis of the deposited data

Results flagged for a closer look

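Below PBS in vivo and above ethanol in culture were 34 of the 41 members, where 29.2% of kept genes were. Lower in both settings were 4, where 27.4% of kept genes were, and higher in both were 3, where 25.5% were. The 34 became 28 after centring, 25 with the mean over probe sets and 19 with the second probe set. The median of the in vivo response minus the in vitro response over the 41 genes was -0.62. The members with opposite signs and a gap of at least 2-fold were Cdc6 (-1.24), Mcm10 (-1.16), Ccne2 (-1.14) and Mcm3 (-1.05). With 1 array per group, these differences between settings were not tested.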

How the results depend on the processing

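No paired analysis was possible because each group has 1 array and no replicate number. Medians are called moved here beyond 0.1 on the log2 scale. The in vivo median of -0.39 was -0.29 with the mean over a gene's probe sets, -0.27 with the second probe set and -0.26 with second probe sets above the level filter, an alternative chosen after seeing the data. The in vivo minus in vitro median of -0.62 was -0.46 and -0.49 under the first 2 of these. Members at least 2-fold lower in vivo numbered 1, but 2 with the mean over probe sets, 3 with the second probe set and 3 against untreated. At 1.5-fold they were 13 in vivo lower, 3 in culture higher, 1 lower and 3 higher for ethanol culture minus untreated, and 23 for in vivo minus in vitro. Members 2-fold higher in cultured dexamethasone were 5 against untreated, a comparison that also holds the culture step. For PBS minus untreated, 1 was 2-fold higher with the second probe set. Shares of kept genes under these alternatives of probe set and control array are not given here. The limma call of Rrm2 was lost, leaving 0 members, with the mean over probe sets, centred arrays, no level filter, no trend, no setting term, and the untreated array added (where its adjusted p was 0.0508). The same fits called 121, 116, 0, 126, 0 and 328 of all genes against 375, and 1128, 1225, 1313, 1152, 324 and 1530 genes had an unadjusted p under 0.05, among them 3, 2, 2, 2, 0 and 6 members. Cdc45 in culture turned to -0.031 with its second probe set. The cause was not tested. Signal near background limits probe sets close to the level filter.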

Other observations

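Among genes of replication outside the 41, Pold2, a subunit of polymerase delta chosen after its values were seen, was at -0.99 in vivo and 0.55 in culture. Its in vivo response minus in vitro response was -1.53.

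In ethanol culture against untreated, 5 of 23 nucleotide synthesis genes were at least 2-fold lower, where 8.07% of kept genes were. They were Mthfd1 (-1.33), Ctps (-1.31), Atic (-1.20), Gart (-1.15) and Nme1 (-1.10), enzymes of folate, pyrimidine and purine metabolism and, for Nme1, a nucleoside diphosphate kinase. Samhd1, which hydrolyses deoxynucleotides, was higher by 2.12, with log2 levels of 7.77 untreated, 8.07 with PBS, 8.06 with dexamethasone in vivo, 9.89 in ethanol culture and 10.23 in cultured dexamethasone. These genes, too, were chosen after their values were seen.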
